A study of Mus musculus with 11 samples.

Results

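The wild-type fetal adrenocortical transcriptome was described from 7 single-colour Agilent arrays, each from a different mouse embryo labelled wild-type (Star+/+). These are all 7 wild-type arrays of a series of 11 arrays, in which the other 4 came from embryos labelled Star-/-, lacking the steroidogenic acute regulatory protein. The embryos were taken at E17.5-18.5, and their adrenal glands were dissociated with trypsin and sorted for cells positive for enhanced green fluorescent protein (eGFP). Both genotypes carried that reporter, on whose promoter the sources used here say nothing, and no strain is named. Per the labels, arrays 1, 2 and 7 came from males and arrays 3 to 6 from females. RNA was amplified linearly from 1 ng before labelling with Cy3, and the arrays lay on 3 slides, with arrays 1 and 2 on slide 1, array 3 on slide 2 and arrays 4 to 7 on slide 3. No condition separates the 7 arrays, so the levels below are a baseline with its spread between embryos, and no genotype comparison is made.

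The cortex of the adrenal gland makes steroid hormones from cholesterol. The pituitary hormone ACTH binds its receptor on cortical cells, cyclic AMP rises, and the StAR protein then moves cholesterol to the inner mitochondrial membrane, where the side-chain cleavage enzyme Cyp11a1 starts steroid synthesis. In the fetus the cortex surrounds chromaffin cells, which will form the medulla and make catecholamines, and it is covered by a mesenchymal capsule and lies beside the kidney and close to the liver.

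Each value is a level: the log2 processed signal of a probe minus the 75th percentile of all probes of that array, so a probe at that percentile has a level of 0. A probe counts as detected where the scanner program flagged it as well above background, and a gene as detected on an array where any of its probes was. Where a gene had several probes, its level was taken from the probe with the highest mean. Probes differ in how well they bind, so an order of levels between genes is an order of probe brightness and not of transcript number. The 75th percentile of the raw signal ran from 114.6 on array 3 to 463 on array 2, and the share of the 41174 probes that were detected from 46.3% on array 5 to 61.8% on array 2. Pairs of arrays correlated with Pearson's r between 0.868 and 0.9651 across probes, which are not independent replicates, and array 3 had the lowest median correlation with the others, at 0.879. Array 3 thus stood somewhat apart, and it is named below wherever a result rests on it.

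The sex labels were checked before any other result. Ddx3y, an RNA helicase gene on the Y chromosome, had levels of 2.26, 2.46 and 2.88 on the male arrays 1, 2 and 7 and of -5.27, -6.20 and -6.74 on the female arrays 3, 5 and 6. On array 4, labelled female, its level was 2.70. Eif2s3y, a Y-linked translation factor gene, showed the same split, at 2.70 on array 4, 2.39 to 2.53 on the 3 male arrays and no more than -5.24 on arrays 3, 5 and 6. Xist, the RNA of the inactive X chromosome, was detected on array 3 alone, at -1.63, and read -4.20 and -6.49 on the female arrays 5 and 6, so its probe did not show that split. It read -6.99 on array 4. The Y transcripts of array 4 therefore go against its label, so it is called the array labelled female, and results that involve sex are given with and without it.

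Of 17374 genes with a probe, 9545 (54.9%) were detected on all 7 arrays and are called expressed, and 2632 (15.1%) were detected on none and are called silent. The other 5197 were detected on 1 to 6 arrays. The distribution was weighted to both ends, with between 643 and 839 genes at each count from 1 to 5 arrays and 1473 genes at 6 arrays. Silent genes had a median level of -6.30, genes found on 6 arrays -2.18 and expressed genes 1.58. A single array often decided the call: 835 genes were missing from array 3 alone and 385 from array 5 alone, against 13 to 156 from each of the others. Expressed here means that some probe of the gene, not always the same one, passed in every sort, and silent means that no probe did, which bounds a level and does not show that a transcript was absent. Of the expressed genes, 9401 (98.5%) were also detected on all 4 knockout arrays, and of the silent genes 2058 (78.2%) were on none of them.

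**Figure D1:**
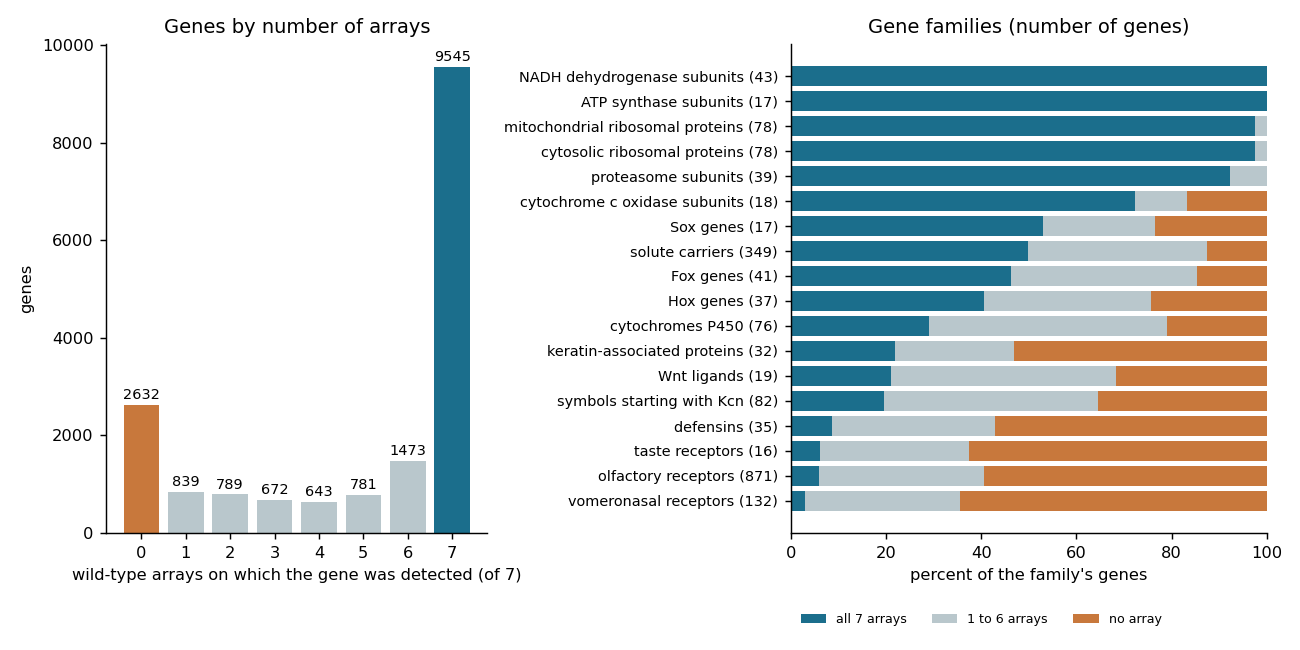
The left panel gives the number of genes (vertical axis) detected on 0 to 7 wild-type arrays (horizontal axis), with 9545 genes on all 7 arrays and 2632 on none. The right panel gives, for gene families of at least 16 genes, the percent of genes detected on all 7 arrays, on 1 to 6 and on none, from NADH dehydrogenase subunits, all 43 of which were on all 7 arrays, down to vomeronasal receptors with 4 of 132.

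The families that every cell uses were expressed almost whole. All 43 subunits of the NADH dehydrogenase of the respiratory chain and all 17 subunits of the ATP synthase were detected on all 7 arrays, against 54.9% of all genes. Of the cytosolic ribosomal proteins 76 of 78 were, with a median level at percentile 99.5 of all genes, and the exceptions, Rpl39l on 3 arrays and Rpl3l on 2, are the copies known from testis and from muscle. Mitochondrial ribosomal proteins were expressed in 76 of 78 cases and proteasome subunits in 36 of 39. Psmb11, the proteasome subunit of the thymus, was detected on 1 array. Of the cytochrome c oxidase subunits 13 of 18 were expressed and 3 were silent, among them the lung form Cox4i2. The muscle forms Cox6a2 and Cox8b were detected on 5 and 2 arrays. Mrpl37 and Psmd13, which are not known as tissue forms, were found on 6 and 3.

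Chemosensory families lay at the other end. Of 871 olfactory receptor genes 51 were detected on all 7 arrays and 517 on none, and of 132 vomeronasal receptors 4 were and 85 were not on any, against 15.1% silent among all genes. The highest of them was Olfr571, at 1.52 ± 0.26 (SD, n = 7), which array 3 led with 2.06. Arrays 1 and 2 detected 285 and 288 olfactory receptor genes, and the other 5 arrays 72 to 135. Of all genes, arrays 1 and 2 detected 77.3% and 78.3%, and the other arrays 63.2% to 73.7%. Both the olfactory counts and the shares of all genes were thus highest on slide 1, whose part was not tested for the family. Keratin-associated proteins were silent in 17 of 32 cases, but Krtap4-6 was at 6.97 ± 0.52, far above every other member. Taste receptors were silent in 10 of 16 cases and defensins in 20 of 35. Low-level receptor signals of this kind were thus called most often on arrays 1 and 2, where the most genes of any kind were detected.

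Developmental and metabolic families were split. Hox genes, which set position along the body axis, were expressed in 15 of 37 cases and silent in 9, led by Hoxb7 at 3.67 ± 0.49, Hoxa7 at 3.40 ± 1.02 and Hoxb2 at 2.98 ± 0.85. Sox genes were expressed in 9 of 17 cases, Fox genes in 19 of 41 and Wnt ligands in 4 of 19. Cytochrome P450 genes were expressed in 22 of 76 cases, led by Cyp11a1, by the oxysterol hydroxylase Cyp7b1 at 3.07 ± 1.62 and by Cyp2s1 at 2.80 ± 1.16. Solute carriers were expressed in 174 of 349 cases, led by Slc25a4, the mitochondrial ADP/ATP carrier, at 7.66 ± 0.74. Of 82 genes whose symbols start with Kcn, mostly potassium channel subunits, 16 were expressed. These shares all lie below the 54.9% of all genes, and no test was made of them.

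The 4 genes that mark steroidogenic cortical cells were all detected on all 7 arrays. Star read 5.87, 7.04, 7.86, 7.49, 3.84, 3.21 and 4.95 on arrays 1 to 7, with a mean of 5.75 ± 1.82. Mrap, the accessory protein that carries the ACTH receptor to the cell surface, read 6.27, 7.76, 6.81, 7.67, 4.79, 4.33 and 5.51, with a mean of 6.16 ± 1.35. Arrays 5, 6 and 7 gave the 3 lowest readings of both genes. That division of the arrays recurs below. It was read from the values, it is no group of the study, and it was given no test. Cyp11a1 read 5.45, 6.18, 2.11, 5.38, 1.62, 2.42 and 3.47, with a mean of 3.80 ± 1.85, and here array 3 fell among arrays 5 to 7. Nr5a1, the nuclear receptor SF-1 that drives steroidogenic gene expression, was low on every array, between -2.49 and -0.61 with a mean of -1.70 ± 0.89. All 4 markers of the labelled cell type were thus detected throughout, as were 54.9% of all genes, but the mean of Nr5a1 lay at percentile 46.7 of all genes, and Star, Mrap and Cyp11a1 were the bright ones. Between sorts the level differed by 4.65 log2 units for Star and 4.56 for Cyp11a1.

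The enzymes of steroid synthesis were present in part. Of 16 genes of the list 8 were expressed and 3 were silent, against 54.9% and 15.1% of all genes, and the median SD of the expressed ones was 1.40 against 0.75 for all expressed genes. The brightest was Akr1b7, an aldose reductase-like enzyme of the adrenal cortex that removes a product of cholesterol side-chain cleavage, at 8.25, 9.48, 10.76, 9.83, 7.36, 6.75 and 8.82 on arrays 1 to 7. Its mean of 8.75 ± 1.41 was at percentile 99.8 of all genes, brighter than every other gene of the list. Hsd3b1, the dehydrogenase that turns pregnenolone into progesterone, read 7.60, 8.12, 9.12, 7.87, 4.88, 5.46 and 5.71, with a mean of 6.96 ± 1.60. As with Star, arrays 1 to 4 were above arrays 5 to 7 without overlap. Hsd3b2 was at -0.95 ± 1.40, lowest on array 6 at -3.94, and its 3 probes disagreed, since the dimmest was detected on no array. The Hsd3b genes are near-identical copies, so their probes may share signal. Hsd3b6 was detected on 6 arrays, from -4.56 on array 5 to 1.38 on array 2.

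The late steps differed more between arrays. Cyp21a1, the enzyme that leads to corticosterone, was detected on arrays 1, 2 and 4, at -1.18, -0.58 and 0.54, and was not well above background on the others. Cyp11b2, aldosterone synthase, was detected on 4 arrays and ran from -6.94 on array 7 to 1.06 on array 4. Cyp17a1, which opens the path to androgens and is known to be little used in the mouse adrenal after birth, was low but steady, from -1.28 to 0.02 with a mean of -0.61 ± 0.55. Akr1c18, which inactivates progesterone, was detected on 6 arrays and ran from -4.85 on array 7 over a median of -0.43 to 3.32 on array 1. The reductase Srd5a1 was at 2.95 ± 0.81, highest on array 3 at 4.05. Hsd11b1, which regenerates active glucocorticoid, read 2.73 to 3.65 on 6 arrays and 0.37 on array 4. Hsd17b1, an estrogen-forming dehydrogenase, was detected on 3 arrays with a mean of -4.38 ± 1.75. Silent were aromatase (Cyp19a1, highest reading -4.02), the testicular dehydrogenase Hsd17b3 and the renal dehydrogenase Hsd11b2.

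**Figure D2:**
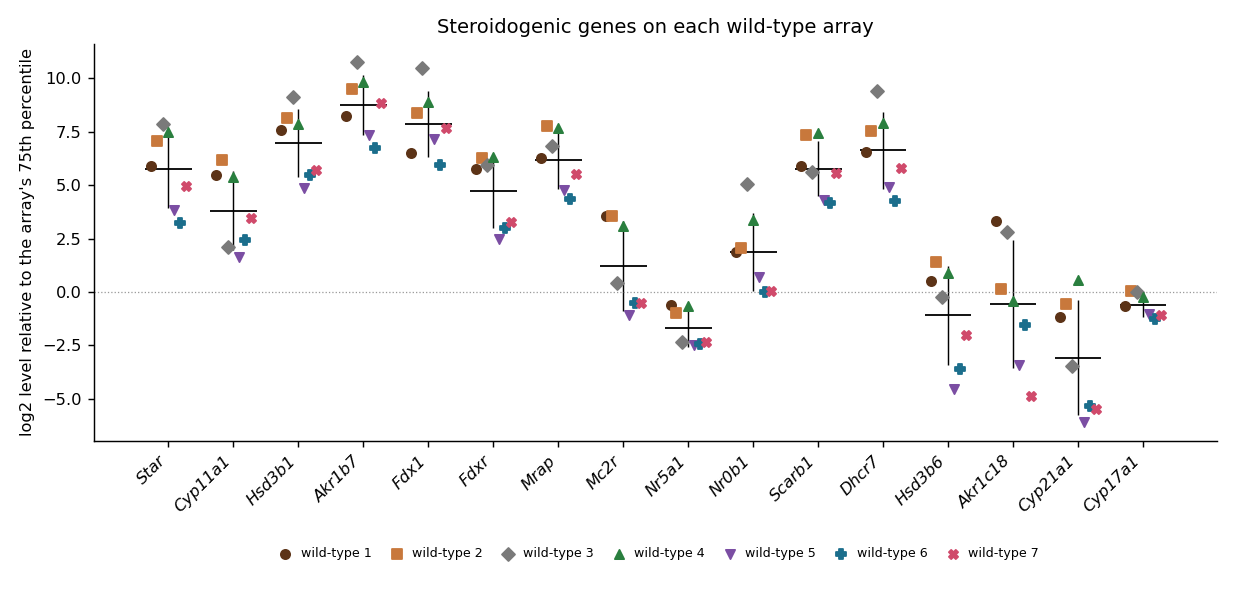
Levels (log2 relative to the 75th percentile of each array, vertical axis) of 16 steroidogenic genes on each of the 7 wild-type arrays, one symbol per array, with a horizontal line at the mean and a vertical line of 1 SD on either side. With this scaling, arrays 1 to 4 lie above arrays 5 to 7 for Star, Hsd3b1, Mrap, Fdxr, Mc2r and Nr0b1, while Cyp17a1 stays between -1.28 and 0.02.

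Mitochondrial and microsomal P450 enzymes need electrons, and all 6 listed genes of that supply were expressed, against 54.9% of all genes. Adrenodoxin, Fdx1, read 6.50, 8.38, 10.50, 8.87, 7.15, 5.92 and 7.69, with a mean of 7.86 ± 1.55. Its reductase Fdxr read 5.76 to 6.31 on arrays 1 to 4 and 2.50 to 3.27 on arrays 5 to 7, with a mean of 4.71 ± 1.71 and no overlap between the 2 sets of arrays. The microsomal partners were steadier. P450 oxidoreductase, Por, was at 4.76 ± 0.59, cytochrome b5, Cyb5a, at 3.79 ± 0.74 with its lowest reading of 2.27 on array 3, and Cyb5r3 at 0.76 ± 1.08. H6pd, which supplies NADPH inside the endoplasmic reticulum, was at 4.52 ± 1.13 and highest on arrays 5 to 7. The mitochondrial reductase thus split the arrays as Star did, and H6pd split them the other way round.

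The ACTH signal path was expressed in 18 of 22 listed genes, and none was silent, against 54.9% and 15.1% of all genes and with no test. Mc2r, the ACTH receptor itself, read 3.55, 3.56, 0.42, 3.09, -1.09, -0.53 and -0.52. Its mean of 1.21 ± 2.10 hides 2 levels, with arrays 1, 2 and 4 at 3.09 or more and the other 4 at 0.42 or less. Prkar2b, a regulatory subunit of protein kinase A, was the brightest of the path at 7.49 ± 1.24, and the catalytic subunit Prkaca was at 4.07 ± 1.13. Nr4a1, a nuclear receptor induced at once by ACTH, ran from 5.91 to 7.93 with a mean of 7.01 ± 0.90 and was higher on arrays 4 to 7 than on arrays 1 to 3. Gnas, the stimulatory G protein subunit, was detected on 6 arrays, and its 3 probes had means between -5.59 and -0.42.

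Of 22 listed transcription factors of the adrenal 13 were expressed, 6 were found on some arrays and 3 were silent, shares near the 54.9% expressed and 15.1% silent of all genes. The brightest were Nr2f2 (COUP-TFII) at 5.60 ± 0.86, the coactivator Cited2 at 4.85 ± 0.42 and Gata6 at 3.86 ± 1.03, which array 3 led with 6.02. Nr0b1 (DAX1), the repressor that opposes SF-1, ran from -0.02 on array 6 over a median of 1.86 to 5.03 on array 3, and arrays 1 to 4 were again above arrays 5 to 7. Expressed at lower levels were Nr3c1, the glucocorticoid receptor, at 1.74 ± 1.16, Hoxb9 at 1.61 ± 1.27, Pknox1 at 0.72 ± 0.95, Cbx2 at -0.10 ± 0.47, Tcf21 at -1.52 ± 0.98 and Nr2f1 at -2.46 ± 0.98.

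Wt1, which acts in the coelomic epithelium that founds the cortex and in mesothelium, was at -0.68 ± 1.92 and ran from -3.58 on array 2 to 1.50 on array 5. Nr3c2, the mineralocorticoid receptor, was found on 6 arrays, Nr5a2 on 5, Nr0b2 on 4, and Gata4 and Lhx9 on 2 each. Gata4 is known from the gonad and from the early adrenal primordium, and its level here was -4.32 ± 0.90. Six4, the gonadal factor Dmrt1 and the testis-determining gene Sry were silent, with means between -6.49 and -6.30. Over the whole list the median level lay at percentile 47.4 of all genes.

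Of 25 genes for cholesterol uptake, esters and transport 19 were expressed and 1 was silent, against 54.9% and 15.1% of all genes and with no test, and their median level was at percentile 81.1. Apoe, the apolipoprotein of the cortex and of macrophages, was at 7.03 ± 1.44 and lowest on array 3 at 4.31. Scarb1, the receptor for high-density lipoprotein, read 5.90, 7.35, 5.59, 7.42, 4.30, 4.17 and 5.57. Plin2, which coats lipid droplets, was at 5.53 ± 0.62, and Soat1, which esterifies cholesterol for storage, at 5.02 ± 0.94. Of 23 sterol synthesis genes 18 were expressed and none was silent. Dhcr7, the last enzyme of cholesterol synthesis, read 6.55, 7.55, 9.39, 7.92, 4.93, 4.27 and 5.82, again with arrays 1 to 4 above arrays 5 to 7. Its 2 probes differed widely, the dimmer one having a mean of -3.60. Hmgcs1 was at 5.58 ± 0.81, led by array 3 at 7.26, Msmo1 at 5.80 ± 0.54 and the isomerase Ebp at 5.97 ± 0.96, with Ebp highest on arrays 5 to 7. Hsd17b7 was expressed on 1 probe or the other on every array but read -6.10 on array 6 with its brighter probe and -0.43 to 2.12 elsewhere.

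Zone and growth genes gave a mixed picture. Agtr1a, the angiotensin receptor of the outer cortex, was at 6.29 ± 0.85 and Dab2, another gene of the glomerulosa, at 4.18 ± 1.19. Wnt4, the ligand of the outer cortex, read 2.57 and 2.57 on arrays 1 and 2 and 2.76 on array 4, but -2.74 to -0.20 on the other 4. Rspo1, which boosts WNT signals, ran from 1.28 on array 2 to 6.46 on array 5. Shh, the hedgehog ligand of the subcapsular cortex, was detected on 5 arrays, from -6.87 to -0.18, and its receptor Ptch1 on none. Of 9 fetal zone genes 6 were expressed, against 54.9% of all genes, led by Tbx3 at 5.98 ± 0.57 and the inhibin subunit Inha at 3.40 ± 1.22. The fetal zone P450 Cyp2f2 read 4.37, 1.85, 3.41, 0.90, -1.91, -2.67 and 0.69. Of 17 imprinted growth genes 12 were expressed, against the same share of all genes, and neither count was tested. The fetal growth factor Igf2 was at 7.90 ± 1.18, the cell cycle inhibitor Cdkn1c at 7.68 ± 0.54 and Mest at 7.45 ± 0.75, and Igf2 and Mest were higher on arrays 5 to 7 than on arrays 1 to 4.

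Ranked by mean level over the 9429 genes whose own probe was detected on all 7 arrays, ribosomal proteins were the family most often met at the top. Of the 100 highest genes, with means between 7.80 and 10.20, 39 encode cytosolic ribosomal proteins, 4 cytochrome c oxidase, 3 the ATP synthase and 3 the NADH dehydrogenase. First came the globin Hbb-bt at 10.20 ± 0.83, then Rpl7a at 10.19 ± 0.76, Rps18 at 10.05 ± 0.49, Rps28 at 9.87 ± 0.76, Rpl37a at 9.86 ± 0.78, Rps16 at 9.77 ± 0.45, Rps23 at 9.75 ± 0.72, Rplp1 at 9.73 ± 0.75, Rps20 at 9.60 ± 0.85 and Rpl27 at 9.49 ± 0.65. Others among the 18 highest were ferritin heavy chain Fth1 at 9.44 ± 0.58, Cox6a1 of the respiratory chain at 9.42 ± 0.76, superoxide dismutase Sod1 at 9.39 ± 0.37 and the ribosomal scaffold Rack1 at 9.28 ± 0.56. Array 3 gave the highest reading for 74 of the 100, and for 37.7% of all 17374 genes, silent ones included. Its share among the 9429 ranked genes was not counted. Ribosomal protein genes have many processed copies in the genome, and globin RNA is made in red cell precursors.

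Of genes tied to the tissue, the top 100 held Akr1b7 in place 39, Fdx1, Igf2, the chromaffin granule protein Chgb and the collagen Col1a2. Reference genes were expressed in 17 of 18 cases, against 54.9% of all genes. Hprt was at 6.28 ± 0.56, Gapdh at 4.21 ± 0.40 and Actb at 1.10 ± 0.65, while Tbp was detected on 6 arrays. Of 26 cell cycle genes 23 were expressed and none was silent, against 54.9% and 15.1% of all genes. Among them were the replication helicase subunit Mcm6 at 6.93 ± 0.78 and the survivin gene Birc5 at 6.04 ± 0.65. Of 29 nuclear and hormone receptors 17 were expressed, near the share of all genes, and 5 were silent, including the estrogen receptor Esr2 and the progesterone receptor Pgr.

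The SD over the 7 arrays had a median of 0.749 among the 9429 genes, with quartiles of 0.538 and 1.036. It depended little on the level, with a median of 0.87 in the second of 10 equal classes of genes by level and 0.64 in the top class. In all 148 genes had an SD above 2 and 154 an SD under 0.25. The steadiest gene was Ctbp1, a transcriptional corepressor, which read 2.44, 2.34, 2.55, 2.54, 2.53, 2.48 and 2.53, with a mean of 2.49 ± 0.08. Rufy1, an endosome protein, was at 2.24 ± 0.10, the aminopeptidase-like Rnpepl1 at 4.15 ± 0.10, the Golgi protein Cog6 at 0.69 ± 0.10, ubiquitin B (Ubb) at 7.74 ± 0.12, and Ndufv1 of the NADH dehydrogenase at 5.20 ± 0.13. Amer1, Nrxn2, Ppp4r1, Gnptg and Eps15l1 had SDs of 0.12 to 0.14. Among the 100 steadiest were 2 enzymes of steroid and carbonyl metabolism, Hsd17b10 at 5.85 ± 0.16, a mitochondrial dehydrogenase of broad substrate range, and Akr1a1 at 5.68 ± 0.17. They were picked for the smallest SDs, so a smaller spread than that of Hprt, Gapdh or Actb follows from the choice. The steadiest set was not recomputed under another scaling. Scaling to the array median moved expressed genes by a median of 3.18 to 4.45, depending on the array. SDs this small thus hold for the scaling used here.

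**Figure D3:**
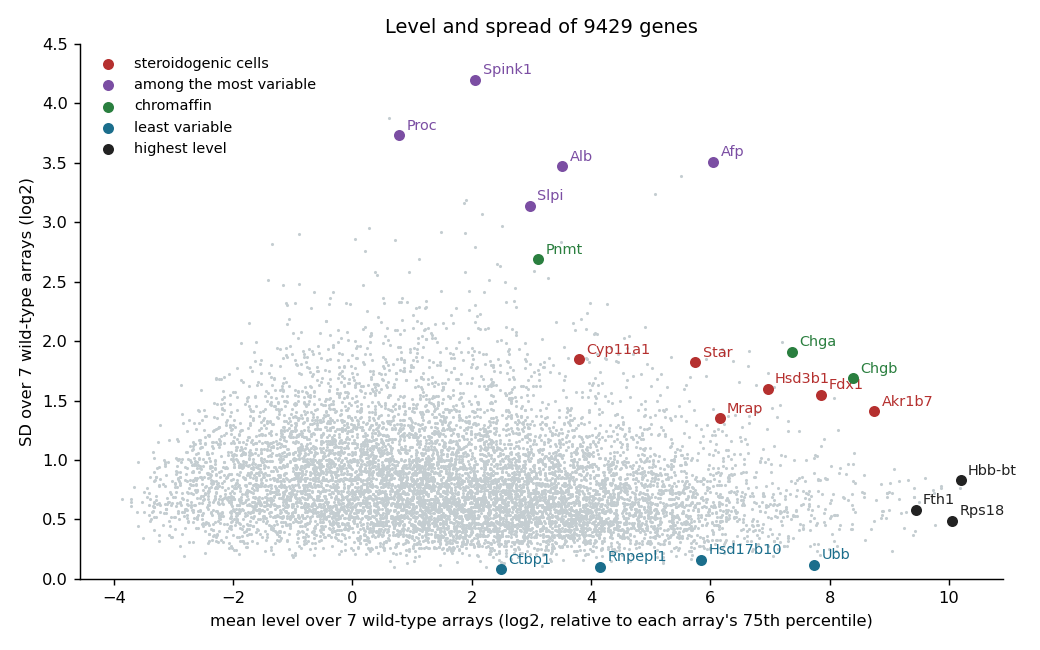
Each grey point is 1 of 9429 genes whose own probe was detected on all 7 wild-type arrays, with its mean level (log2 relative to the 75th percentile of each array, horizontal axis) and its SD over the arrays (log2, vertical axis). Named genes are coloured by group, from Ctbp1 with an SD of 0.08 to Spink1 with an SD of 4.20, and the 6 genes marked as of steroidogenic cells (Star, Cyp11a1, Hsd3b1, Akr1b7, Mrap and Fdx1), which were picked for labelling, have SDs of 1.35 to 1.85.

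The 100 genes with the largest SD, between 2.11 and 4.20, held 7 genes of a hepatocyte list chosen after their values were seen, 4 chromaffin genes and 4 cytochrome P450 genes, and most were on none of the lists. Spink1, a secreted trypsin inhibitor, came first and read -3.38, 4.65, 2.40, 4.16, 5.78, -4.38 and 5.18. Aqp8, a water channel, ran from -4.26 to 5.59, and Proc, the liver-made anticoagulant protein C, from -3.92 to 6.01. Alpha-fetoprotein, Afp, read 3.60, 7.30, 6.68, 5.65, 9.85, -0.24 and 9.48, and albumin, Alb, ran from -2.94 to 6.95. Ahsg, Serpina1d, Itih3, Cyp2c70 and Vtn, all made by liver, had SDs between 2.85 and 3.39. For each of Spink1, Aqp8, Proc, Afp and Alb arrays 5 and 7 were the highest pair and array 6 was the lowest. Other names among the first 20 were Slpi, Galnt15, Sgsm1, Ppbp, Lypd3, Prr15, the mast cell protease Cpa3, Stmn4 and Hsd3b4, with SDs between 2.82 and 3.14.

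Among genes that were detected on some arrays only, the largest range was that of the fibrinogen chain Fgg, which read 8.77 and 8.50 on arrays 5 and 7 and -6.45 on array 6, where it was not detected. Ambp, Igfbp1, F2, Fgb and Uox, likewise liver products, had ranges between 12.72 and 14.74 and were missing from array 6 alone. Fabp2, the fatty acid-binding protein of enterocytes, read 7.93 on array 2 and 7.14 on array 5 but no more than -1.07 on the other 5, and lactase (Lct) 4.98 and 3.94 on those arrays. Fabp1, which liver and intestine share, read 7.02 on array 2, 7.36 on array 5 and 5.36 on array 7, against -5.43 on array 6. Tff3 ran from -6.74 on array 6 to 5.20 on array 7.

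Single arrays carried signals of their own. These examples were chosen after their values were seen. Slc34a1 and Slc12a1, transporters of the kidney tubule, read 2.84 and 0.07 on array 4 and no more than -4.71 elsewhere, and Slc22a6, another tubular transporter, read 2.68 there. On array 4 the kidney list (also chosen after the values were seen) had 16 of 20 genes detected, against 6 to 11 on the others, and 9 of its 20 genes were highest there. Of all genes 73.7% were detected on array 4 and 10.2% were highest there. Hsd3b4, known as a renal member of the Hsd3b family, read 4.73 on array 4 and -0.73 or less elsewhere, and Hsd3b5, known from liver, 1.10 against at most -4.64. Cdx2, the intestinal transcription factor, and Mttp were detected on array 2 alone, where 8 of 15 intestinal genes and 9.2% of all genes had their highest reading. Reg1, a pancreatic secreted protein, read 2.72 on array 5 and at most -4.80 elsewhere. The pancreas list did not go with it. Its median level on array 5, -6.03, was the lowest of the 7 arrays. There 5 of its 11 genes were detected, against 65.1% of all genes. The mesothelial marker Msln was highest on array 5 at 5.84. It read 4.45, 3.74 and 3.89 on arrays 1, 6 and 7, and 0.37 or less on arrays 2 to 4. Of 10 mesothelial genes 8 were highest on array 5, as were 12.7% of all genes. Array 3 had 54 genes that it alone detected and that lay more than 3 log2 units above every other array, such as Olfr395 at 2.59, against 5 to 12 such genes on the others.

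**Figure D4:**
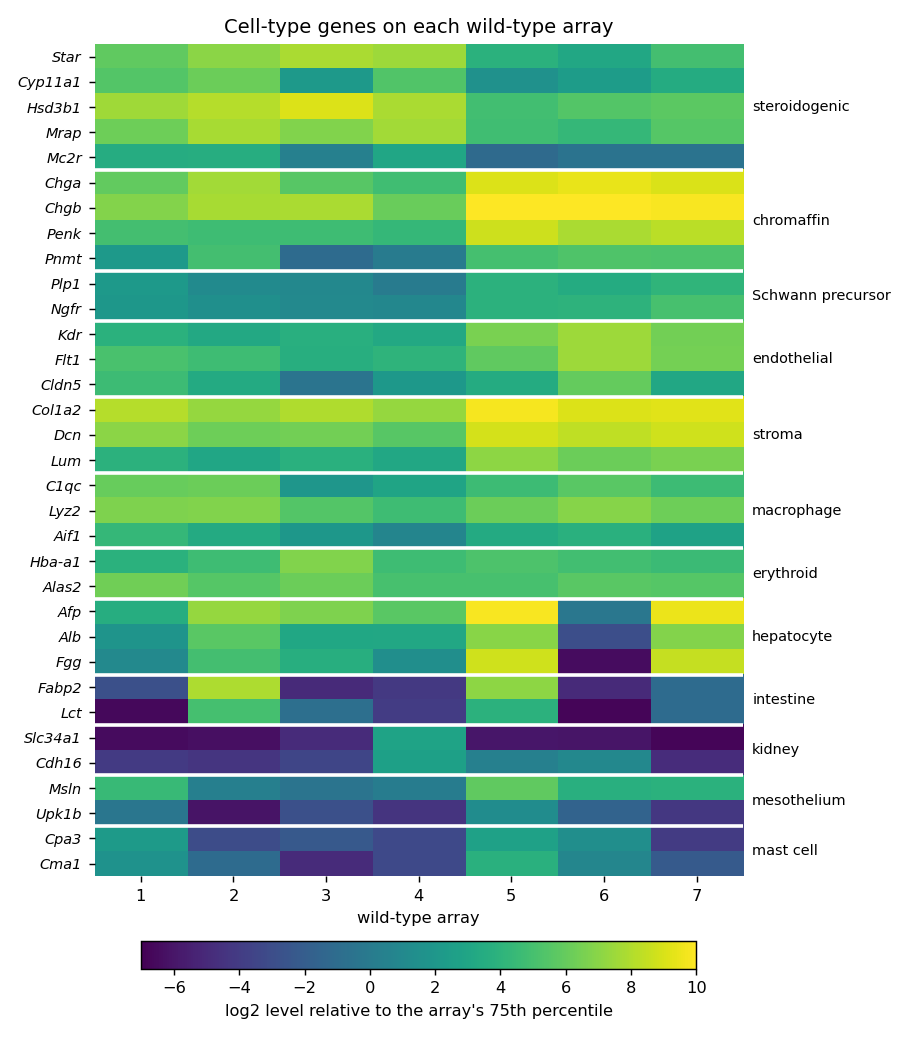
Colour gives the level (log2 relative to the 75th percentile of each array) of genes of 12 cell types (rows) on the 7 wild-type arrays (columns). Arrays 5 and 7 are high for Afp, Alb and Fgg while array 6 is low, array 2 and array 5 are high for Fabp2 and Lct, array 4 for Slc34a1, and arrays 5 to 7 for Chga, Penk and Col1a2.

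Markers of the cells that adjoin the cortex were measured with whole lists. Of 28 chromaffin genes 21 were expressed and 2 silent, against 54.9% and 15.1% of all genes. The list's median level was between -1.39 and 0.53 on arrays 1 to 4 and 2.10, 2.47 and 2.96 on arrays 7, 5 and 6, so the 2 sets of arrays did not overlap. The granins Chgb and Chga were at 8.40 ± 1.69 and 7.37 ± 1.91, the enkephalin precursor Penk at 6.20 ± 1.93, and Pnmt, which makes adrenaline, ran from -1.04 on array 3 to 5.34 on array 6. Single genes of the list did not all divide the arrays cleanly. Array 2 read 4.90 for Pnmt, close to the 5.00, 5.34 and 5.24 of arrays 5 to 7, and gave the highest reading of Scg2, at 1.50. Schwann cell precursor genes had the same split, with list medians of -2.85 to -0.38 on arrays 1 to 4 and 0.22 to 0.80 on arrays 5 to 7, and Erbb3 was detected on arrays 5 to 7 alone. Capsule and stroma genes were expressed in 13 of 14 cases, with list medians of 2.90 to 4.42 on arrays 1 to 4 and 5.93 to 6.37 on arrays 5 to 7. Col1a2 was at 8.40 ± 0.97, Dcn at 7.31 ± 1.33 and Lum at 4.84 ± 1.72.

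Arrays 5 to 7, where Star, Mrap, Hsd3b1 and Dhcr7 read lowest, were those where chromaffin, Schwann cell precursor and stromal lists read highest. Array 4, the remaining array of slide 3, read with arrays 1 and 2 for these genes, and the part of the slide in the division was not tested. Not every steroidogenic gene was divided in this way. Akr1b7 read 8.25 on array 1 and 8.82 on array 7, and Fdx1 6.50 and 7.69. Cyp11a1 read 2.11 on array 3 and 3.47 on array 7. How many of all genes keep the 2 sets of arrays apart was not counted. With each array scaled to its median in place of its 75th percentile, the readings of arrays 1 to 4 and 5 to 7 stayed apart for Star, Hsd3b1, Fdxr and the 3 lists, but overlapped for Mrap, Mc2r, Nr0b1 and Dhcr7 (for Mrap, 9.47 on the lowest of arrays 1 to 4 and 9.48 on the highest of arrays 5 to 7). In RNA of a whole sort, fewer cells of a type and less of its RNA per cell cannot be told apart, and the part of other cells in the spread of the steroidogenic genes was not tested.

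Blood, vessel and immune genes differed in other ways, and their counts stand beside 54.9% expressed and 15.1% silent among all genes. Of 16 endothelial genes 11 were expressed, and 11 had their highest reading on array 6 and 5 on array 1, with list medians from -0.63 on array 3 to 3.22 on array 6. The VEGF receptors Flt1 and Kdr were at 5.34 ± 1.34 and 4.94 ± 1.81. Macrophage genes were expressed in 14 of 19 cases, with list medians of 2.80 and 2.94 on arrays 1 and 2, 2.08 on array 6 and 0.03 and 0.07 on arrays 4 and 3. Lysozyme, Lyz2, was at 6.14 ± 0.79 and the complement gene C1qc at 4.59 ± 1.61, and Spi1 was silent. Of 12 erythroid genes 7 were expressed, close to the share of all genes, with Alas2, the first enzyme of heme synthesis in red cells, at 5.61 ± 0.48 and Hba-a1 at 4.96 ± 0.90. Rhag and Epb42 were not detected on arrays 6 and 7. Of 15 gonadal genes 5 were expressed and 4 silent, the silent ones including Amh and Lhcgr. The podocyte gene Nphs1 and the kidney factor Pax8 were silent.

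The hepatocyte list, chosen after the values were seen, had 21 genes. Of these 8 were expressed and none was silent, against 54.9% and 15.1% of all genes. The list's median level was 5.99 on array 5, 5.72 on array 7, 2.66 on array 2, 0.18 and 0.15 on arrays 3 and 4, -1.76 on array 1 and -6.45 on array 6. All 21 genes were detected on arrays 2, 5 and 7 and 9 on array 6. Of all genes 78.3%, 65.1% and 71.6% were detected on arrays 2, 5 and 7, and 68.9% on array 6. Array 6 had high chromaffin and stromal medians and the lowest hepatocyte median, so the 2 groups of genes did not move together over the arrays. Of 8 mast cell genes 4 were expressed, and Cpa3 read 2.24, 2.74 and 1.41 on arrays 1, 5 and 6 against -2.22 or less on the other 4.

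Promoter sequence was a property that the choice of arrays did not use. RefSeq promoters of GRCm38.p6, from 250 bases before to 50 bases after the gene start, were matched by gene identifier to 13886 of the 17374 genes. The CG dinucleotide is depleted in most of the mouse genome, and it is retained in CpG islands, which mark the promoters of widely expressed genes. The ratio of CG observed to that expected from base composition had a median of 0.77 for expressed genes, 0.49 for genes found on some arrays and 0.23 for silent genes, against 0.66 for all genes of the array. A ratio over 0.6 was found in 72.4% of the 7675 expressed, 42.3% of the 4080 intermediate and 18.4% of the 2131 silent promoters. The median GC content was 60.7%, 56.3% and 48.0%.

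Spread went with sequence as well, but at the variable end only. The 69 promoters of the 100 most variable genes had a median ratio of 0.34. The 83 promoters of the 100 steadiest genes had 0.78, close to the 0.77 of all expressed genes. The letters TATAAA, searched on both strands, occurred in 7.83% of expressed and 23.9% of silent promoters, in 8.43% of those of the steadiest and 26.1% of those of the most variable genes, and in 14.2% of the 27025 promoters of the table. The 10 promoters of steroid synthesis genes had the median ratio of silent genes, 0.23, but 0 of the 10 held TATAAA. Of the 16 genes of that list 8 were expressed, and the 10 promoters include those of the silent Cyp19a1 and Hsd17b3. The 18 promoters of hepatocyte genes had a median of 0.24. The SF-1 half-site AAGGTCA, searched on both strands, was in 1 of the 10 steroid synthesis promoters matched, that of Akr1b7 (Star was not among the 10), and in 4.66% of all promoters. These are matches of letters in a 300-base window, not sites of binding.

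**Figure D5:**
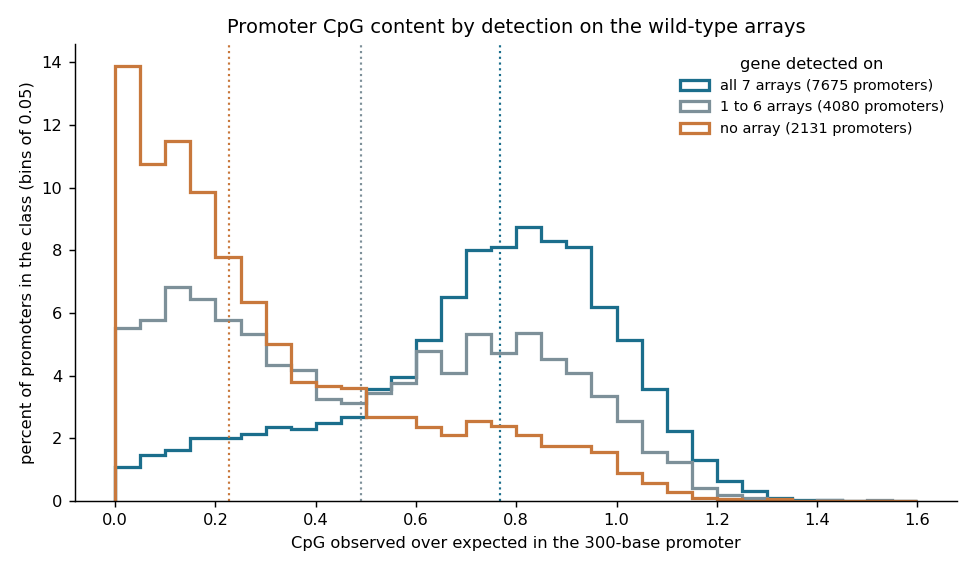
Percent of promoters (vertical axis, bins of 0.05) by the ratio of observed to expected CG dinucleotides in 300 bases (horizontal axis), for genes detected on all 7 wild-type arrays, on 1 to 6 and on none, with dotted lines at the medians of 0.77, 0.49 and 0.23. Expressed genes peak at high ratios and silent genes at low ones, and the intermediate class shows both peaks.

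The contrast is visible in a few example sequences, shown here 5′ to 3′ in lower case with each CG dinucleotide in capitals. The steadiest gene, Ctbp1, has 43 CG dinucleotides at chr5:33274955-33275254 (minus strand), and the ribosomal gene Rps18, among the 3 highest by level, has 24 at chr17:33955616-33955915 (minus strand).
Ctbp1: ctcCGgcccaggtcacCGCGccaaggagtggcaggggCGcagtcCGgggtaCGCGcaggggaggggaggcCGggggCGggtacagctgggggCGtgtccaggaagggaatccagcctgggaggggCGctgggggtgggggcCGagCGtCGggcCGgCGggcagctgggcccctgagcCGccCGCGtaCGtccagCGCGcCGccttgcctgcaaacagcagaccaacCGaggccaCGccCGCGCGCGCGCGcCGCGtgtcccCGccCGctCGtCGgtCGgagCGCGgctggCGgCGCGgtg
Rps18: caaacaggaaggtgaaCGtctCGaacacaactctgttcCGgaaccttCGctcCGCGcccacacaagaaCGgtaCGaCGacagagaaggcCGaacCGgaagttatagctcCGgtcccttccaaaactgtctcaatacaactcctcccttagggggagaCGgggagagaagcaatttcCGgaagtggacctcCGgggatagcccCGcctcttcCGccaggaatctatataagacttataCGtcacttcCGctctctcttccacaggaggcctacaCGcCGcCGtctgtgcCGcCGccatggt
The cortical genes follow. Cyp11a1 has 7 CG dinucleotides at chr9:57997774-57998073 (plus strand), Hsd3b1 has 2 at chr3:98859745-98860044 (minus strand) and Akr1b7, the brightest steroid synthesis gene, has 3 at chr6:34412112-34412411 (plus strand).
Cyp11a1: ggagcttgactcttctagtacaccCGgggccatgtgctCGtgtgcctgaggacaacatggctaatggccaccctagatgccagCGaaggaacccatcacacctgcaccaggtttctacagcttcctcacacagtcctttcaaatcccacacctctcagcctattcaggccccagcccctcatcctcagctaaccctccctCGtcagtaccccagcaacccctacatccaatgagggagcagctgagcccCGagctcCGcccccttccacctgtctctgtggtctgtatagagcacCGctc
Hsd3b1: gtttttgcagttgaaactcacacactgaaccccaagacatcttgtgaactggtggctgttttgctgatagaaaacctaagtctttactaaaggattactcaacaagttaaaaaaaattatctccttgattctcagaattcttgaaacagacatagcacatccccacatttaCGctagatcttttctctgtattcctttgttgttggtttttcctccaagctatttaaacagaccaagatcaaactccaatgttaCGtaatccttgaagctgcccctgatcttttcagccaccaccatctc
Akr1b7: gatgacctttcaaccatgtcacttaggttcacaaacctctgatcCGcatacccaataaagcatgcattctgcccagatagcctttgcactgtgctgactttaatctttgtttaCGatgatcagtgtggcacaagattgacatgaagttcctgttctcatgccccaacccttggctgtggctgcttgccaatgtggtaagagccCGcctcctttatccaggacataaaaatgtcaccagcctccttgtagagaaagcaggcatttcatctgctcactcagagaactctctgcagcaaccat
For comparison, Afp, among the most variable genes, has 3 at chr5:90490464-90490763 (plus strand) with the letters TATAAA, and the silent aromatase gene Cyp19a1 has 6 at chr9:54268115-54268414 (minus strand).
Afp: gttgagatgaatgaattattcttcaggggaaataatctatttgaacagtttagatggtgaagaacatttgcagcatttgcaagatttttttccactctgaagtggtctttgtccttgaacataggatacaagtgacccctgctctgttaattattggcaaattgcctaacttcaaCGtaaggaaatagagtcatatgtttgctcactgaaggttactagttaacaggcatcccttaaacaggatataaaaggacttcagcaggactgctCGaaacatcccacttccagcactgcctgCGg
Cyp19a1: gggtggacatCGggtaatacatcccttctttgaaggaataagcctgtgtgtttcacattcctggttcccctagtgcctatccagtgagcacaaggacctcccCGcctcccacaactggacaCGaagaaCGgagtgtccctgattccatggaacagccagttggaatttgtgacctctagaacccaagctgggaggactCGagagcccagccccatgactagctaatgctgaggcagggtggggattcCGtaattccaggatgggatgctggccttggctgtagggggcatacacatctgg
The promoters of the bright and variable cortical genes Hsd3b1 and Akr1b7 are thus as poor in CG as that of Afp, with ratios of 0.19, 0.19 and 0.25, while Ctbp1 and Rps18 have 0.94 and 1.02. Silent genes differ among themselves. Cyp19a1 has a ratio of 0.27, but the silent Esr2, whose sequence is not shown, has 14 CG dinucleotides and a ratio of 0.6.

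Sex and slide were the attributes of the wild-type arrays that could be tested, each with limma's moderated test on the 19465 probes or genes detected on at least 3 arrays, two-sided with Benjamini-Hochberg adjustment. By label, 0 (0.0%) passed an adjusted p of 0.05 between 3 male and 4 female arrays, and 525 had an unadjusted p under 0.05. Without array 4, 4 (0.0205%) passed, of which the named ones were the Y genes Eif2s3y and Ddx3y. In that fit Eif2s3y was at 2.44 in 3 males against -6.04 in 3 females (limma, adjusted p = 0.0101), and Ddx3y at 2.53 against -6.07 (limma, adjusted p = 0.0101). The other 2 were probes without a gene name, so no steroidogenic gene named here was called between the sexes in either fit.

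Slide 1 (arrays 1 and 2) held arrays labelled male only, read with version 10.1.1.1 of the scanner program. Slide 3 (arrays 4 to 7) held both sexes and was read with version 10.5.1.1. Slide and version thus cannot be told apart, and slide and sex only in part. Between these 2 slides, limma called 0 (0.0%) of 19465 at an adjusted p of 0.05, with 2694 at an unadjusted p under 0.05. Closest were the chemosensory receptors Vmn1r18, at -1.93 on slide 1 and -6.52 on slide 3, and Olfr441, at 1.43 and -2.49 (limma, adjusted p = 0.122 for both). Without array 4 the same fit called 2748 (14.1%), 1681 higher and 1067 lower on slide 1. Mc2r was among them, at 3.56 on arrays 1 and 2 and -0.71 on arrays 5 to 7 (limma, adjusted p = 0.0293), and so was the neurotrophin receptor Ntrk2, at -0.38 and 4.05 (limma, adjusted p = 0.0293). Array 4 read -0.19 for Ntrk2 and 3.09 for Mc2r, near the slide 1 arrays, although it lay on slide 3. The fit without array 4 sets arrays 1 and 2 against arrays 5 to 7, the division already read from these values. Its calls, Mc2r among them, are therefore no independent support for that division.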

How the data were processed

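RNA of sorted eGFP-positive cells from the adrenal glands of 7 wild-type mouse embryos, one array per embryo, was measured on single-colour Agilent arrays. Per the labels' protocols, RNA had an integrity number of at least 7.0 and was amplified from 1 ng. The labels do not say whether embryos shared a litter. Spot intensity comes from the deposited scanner output, in which background was subtracted from the processed signal by Agilent Feature Extraction, version 10.1.1.1 on slides 1 and 2 and 10.5.1.1 on slide 3, per the file headers. The submitters' processing notes name version 10.5.1.1 alone. The deposited flags for outliers, saturation and signal well above background were used. The series table that the authors deposited is on a log2 scale, with no scaling named in these sources. After centring on probe medians, levels computed as below came within 0.01 of it for at least 99.83% of probes per array. Its column medians ran from -0.166 to 0.901, and it served as an alternative.

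Control spots and outlier spots were left out, log2 processed signals of repeated spots were averaged into 41174 probes, and the 75th percentile of these was subtracted within each array. No probe was saturated. Of the probes 25285 had a gene, named through accessions in the files and a RefSeq table of GRCm38.p6, whose coordinates were used for promoters only. Of the 17374 genes 6104 had several probes, and in 798 of these one probe was detected on all arrays and another on none. The number of arrays limits the precision. Levels, spread and detection are descriptions without a test. Sex and slide were tested with limma 3.58.1 in R 4.3.3, which was tested on simulated data. Tables were made with Python 3.11.15 and pandas 2.3.3.

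Genes named are the 4 markers, all members of the lists of steroid synthesis, electron transfer and transcription factors, leading, most variable and silent members of the other lists, and the extremes of level, SD and range. A few of these genes are not reported here. Members and lists were chosen with earlier results of these data known. Of 381 list symbols 362 were on the array. A further 6 lists (hepatocytes, intestinal epithelium, kidney tubule, mesothelium, mast cells and pancreas) and the genes shown for single arrays were chosen after their values were seen. Of the 11 pancreas genes 4 were expressed and 1 was silent, against 54.9% and 15.1% of all genes.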

Additional observations from a re-analysis of the deposited data

Results flagged for a closer look

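Of the 183 genes named with a level, 24 had 1 array far from the others, meaning that its gap to the nearest array was more than 0.568 of the whole range over 7 arrays. Chance alone gives about 1 such gene in 20, and several of these genes were named because of such an array. On array 3 the level was far above the rest for Cox6a1 at 11.00, Gata6 at 6.02, Hbb-bt at 12.01, Hmgcs1 at 7.26, Rps20 at 11.42, Olfr395 at 2.59 and Olfr571 at 2.06. Hsd11b2 at -4.37, Six4 at -5.04 and Sry at -3.77 were also highest there, in each case not well above background. On the same array Cyb5a at 2.27 and Pknox1 at -1.38 were far below the rest.

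Array 4 stood far above the others for Slc34a1 at 2.84, Slc12a1 at 0.07, Slc22a6 at 2.68, Hsd3b4 at 4.73 and Hsd3b5 at 1.10, and far below them for Hsd11b1 at 0.37. Array 2 was far above for Cdx2 at -1.29, Mttp at -2.44 and Gnptg at 2.79, where the next reading was 2.53. Array 5 was far above for Reg1 at 2.72. Array 6 was far below for Hsd17b7 at -6.10 and Hsd3b2 at -3.94.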

How the results depend on the processing

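No paired analysis was possible because the 7 arrays belong to 1 group and share no replicate number. With the flag for positive and significant signal, 12035 genes were detected on all arrays and 543 on none, and with every probe counted for itself 14922 and 11703 probes were. Leaving out 1 array gave 9558 to 10380 genes on all remaining arrays, the highest without array 3, and 2668 to 2848 on none. Of the 100 most variable genes 59 were shared under normexp background correction and 49 with the median absolute deviation as the measure of spread, and 68 to 89 with 1 array left out. Of the 100 highest, 90 to 97 were shared under the alternatives run. Leaving out 1 array gave a median SD of 0.614 (without array 3) to 0.767. Scaling to the array median set the median level of expressed genes at 5.32 in place of 1.62, since it moved the means of all genes up by 3.70 in the median. Normexp moved them by 0.61 in the median. No single named level moved by over 1 SD with quantile normalization or with an array left out, while 60 of 183 did with normexp. Calls between sexes ran from 0 to 4 and between slides from 0 to 2748 with 1 array left out, the highest in both without array 4, and were 0 under every other alternative run. The count of expressed members of a list stayed within 1.5 times in 21 of 27 lists with the other flag. Signals close to background limit above all the calls of silent genes, whose count moved more with the flag than that of expressed genes.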
